A study of Mus musculus with 2 samples.

Results

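Messenger RNA of 5 genes that define the glutamate and GABA transmitter identity of neurons was measured over 2 coronal mouse brain sections profiled with Visium, which reads the RNA of a tissue slice spot by spot on a barcoded slide. The genes were chosen by symbol: Slc17a6, Slc17a7, Slc32a1, Gad1 and Gad2. All 5 were found once among the 32285 genes of both matrices. The section labelled trained came from 1 male mouse that had learned active place avoidance, in which an animal on a rotating arena avoids a zone that gives a mild shock, and the section labelled untrained came from 1 male mouse that had walked the same arena with the shock always off. Both mice were ArcCreERT2::eYFPflx on a C57BL/6 background, a line in which a tamoxifen-inducible Cre under Arc control switches on a yellow fluorescent protein, both were 3 to 4 months old, and both brains were taken 60 min after a retention test. Each group therefore held 1 section of 1 mouse. Every difference between the sections was also a difference between 2 animals and 2 libraries, and spots were not used as replicates.

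Neurons that release glutamate load it into synaptic vesicles through a vesicular glutamate transporter. Slc17a7 encodes VGLUT1, which is typical of cortical and hippocampal principal cells, and Slc17a6 encodes VGLUT2, which is typical of thalamic, hypothalamic and habenular neurons. Neurons that release GABA make it from glutamate with the decarboxylases GAD67, encoded by Gad1, and GAD65, encoded by Gad2, and load it into vesicles through VGAT, the product of Slc32a1. The forebrain sections therefore hold places where glutamate neurons use different transporters, and nuclei such as the reticular thalamus that consist of GABA neurons.

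The sections held 4152 and 3738 spots with 29515831 and 59029131 unique molecular identifiers (UMIs, each marking 1 captured RNA molecule) in the order trained, untrained, which is also the order of all paired values given without a label. The median depth was 5950 and 13766.5 UMIs per spot. The libraries shared 3448 barcodes, which stand for the same positions of the slide grid and not for shared cells. Levels are given as CPM, the UMIs of a gene per 1000000 UMIs of the same spots, with exact Poisson 95% intervals. Shares have Clopper-Pearson 95% intervals, and all intervals cover counting error only. Spots of at least 500 UMIs were grouped by their expression without the 5 genes or any of the genes listed with them, and the groups were named by regional markers. The sections did not hold the same tissue: the striatum took 212 and 27 spots, and cluster 19, led by Cartpt, Vgll3 and Trhr and given no regional name, took 1 and 178 spots. A UMI of Egr1, an activity-regulated gene, was found in 43.6% of the hippocampal spots of the section labelled trained and in 68.8% of those of the section labelled untrained. At an equal 1000 UMIs per spot the Egr1 shares were 11.1% and 11.2%, and its levels were 164 CPM (152.5 to 177) and 139 CPM (132 to 146). The unthinned shares run opposite to the order that the text of the study gives for its own, differently chosen hippocampal spots. The labels may therefore have been exchanged in the deposit. The thinned shares and levels did not settle this, and directions between sections hold for the labels as deposited.

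Where the 5 genes start in the genome is shown first, because a divergent transcript found in the Slc32a1 window, Gm14204, had a regional pattern close to that of the GABA genes. On GRCm38, Slc17a6 lies at chr7:51622006-51671119 with 12 exons in its longest coding transcript, Slc17a7 at chr7:45163949-45176142 with 12, Slc32a1 at chr2:158610767-158615748 with 2, Gad1 at chr2:70553072-70602014 with 17, and Gad2 at chr2:22622205-22693874 with 16. All are on the plus strand. Gad1 is overlapped on the other strand by Gad1os, with 5 and 9 UMIs, and Slc32a1 by Gm14205, with 0 UMIs in both sections. The sequences are RefSeq windows of GRCm38.p6 before the annotated start, on the plus strand, ended before any exon of the gene itself. The Gad1 window lies inside the span of Gad1 given above, before a start site within that span. Capitals mark matches, on either strand, to the first 3 motifs spelled out after the sequences, except in the Slc32a1 window, where they mark the 196 bases covered by the first exon of Gm14204 on the minus strand.
Slc17a6 at chr7:51621580-51621829: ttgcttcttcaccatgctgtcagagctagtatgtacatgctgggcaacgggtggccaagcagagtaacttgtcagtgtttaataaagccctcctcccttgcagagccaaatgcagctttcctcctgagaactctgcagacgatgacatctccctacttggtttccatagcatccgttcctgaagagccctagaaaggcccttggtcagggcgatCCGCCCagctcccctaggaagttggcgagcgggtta
Slc17a7 at chr7:45163671-45163920: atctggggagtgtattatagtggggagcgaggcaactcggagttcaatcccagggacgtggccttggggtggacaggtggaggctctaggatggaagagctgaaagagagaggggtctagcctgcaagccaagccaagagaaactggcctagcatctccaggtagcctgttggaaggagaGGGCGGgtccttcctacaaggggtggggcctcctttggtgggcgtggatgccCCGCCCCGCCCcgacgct
Slc32a1 at chr2:158610508-158610757: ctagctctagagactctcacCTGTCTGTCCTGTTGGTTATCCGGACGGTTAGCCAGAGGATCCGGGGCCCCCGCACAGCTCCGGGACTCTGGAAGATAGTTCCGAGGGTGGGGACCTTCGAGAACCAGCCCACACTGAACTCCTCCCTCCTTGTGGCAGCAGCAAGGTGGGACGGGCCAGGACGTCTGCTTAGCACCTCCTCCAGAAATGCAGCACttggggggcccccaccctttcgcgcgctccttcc
Gad1 at chr2:70561879-70562041: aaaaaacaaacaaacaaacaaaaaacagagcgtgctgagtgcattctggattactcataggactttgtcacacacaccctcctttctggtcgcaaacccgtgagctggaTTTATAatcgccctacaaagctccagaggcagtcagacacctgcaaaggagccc
Gad2 at chr2:22622077-22622204: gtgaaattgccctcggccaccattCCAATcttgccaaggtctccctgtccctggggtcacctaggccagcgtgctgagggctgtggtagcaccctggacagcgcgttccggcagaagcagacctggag
Motifs were counted on both strands in the full 250 bases before each start, and matches of a motif could overlap. GGGCGG, a GC box, was found 3 times before Slc17a7 and 1 time each before Slc17a6 and Gad1, and 32.8% of 32841 promoter windows of that length held it. The Gad1 match lay after the printed bases, in the part of the window that begins with an annotated Gad1 exon. TATAAA was found 1 time, before Gad1, against 12.4% of all windows. CCAAT was found 1 time, before Gad2, against 33.9%. CANNTG was found before all 5 genes, against 66.2%, and neither TAATTA, in 4.84% of all windows, nor TGACGTCA, in 1.55%, was found in any of these 5 windows. The GC content of the 5 windows ran from 53.2% for Slc17a6 to 64% for Gad2, and the median of all windows was 52.4%. Slc17a6 has another annotated start site, at the end of chr7:51624387-51624636, whose window is not printed: it had a GC content of 41.2% and held TAATTA 1 time, CANNTG 2 times and none of the other motifs.

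Over each section the 5 genes formed 3 main spatial domains. Slc17a7 lay mainly in the cortex and hippocampus, and Slc17a6 mainly in the thalamus, habenula and hypothalamus. The 3 GABA genes were strongest in a thin curved band at the outer edge of the thalamus. Slc17a7 had 10837 and 26415 UMIs, or 367 CPM (360.3 to 374) and 447 CPM (442 to 453). Slc17a6 had 2842 and 5243 UMIs, or 96.3 CPM (92.8 to 99.9) and 88.8 CPM (86.4 to 91.3). The GABA genes had 9700 and 9475 UMIs of Gad1, 5112 and 5223 of Gad2, and 4722 and 4696 of Slc32a1. Because capture can differ between genes, a level is compared between places and not between genes. A score deposited by the authors, Moran's I, measures how alike neighbouring spots are. Slc17a7 ranked 10 of 20513 and 11 of 21498 genes by it, with scores of 0.545 and 0.569. Slc17a6 ranked 46 and 45, with 0.416 and 0.47. The GABA genes ranked 94 to 107 in the section labelled trained and 390 to 644 in the section labelled untrained.

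**Figure D1:**
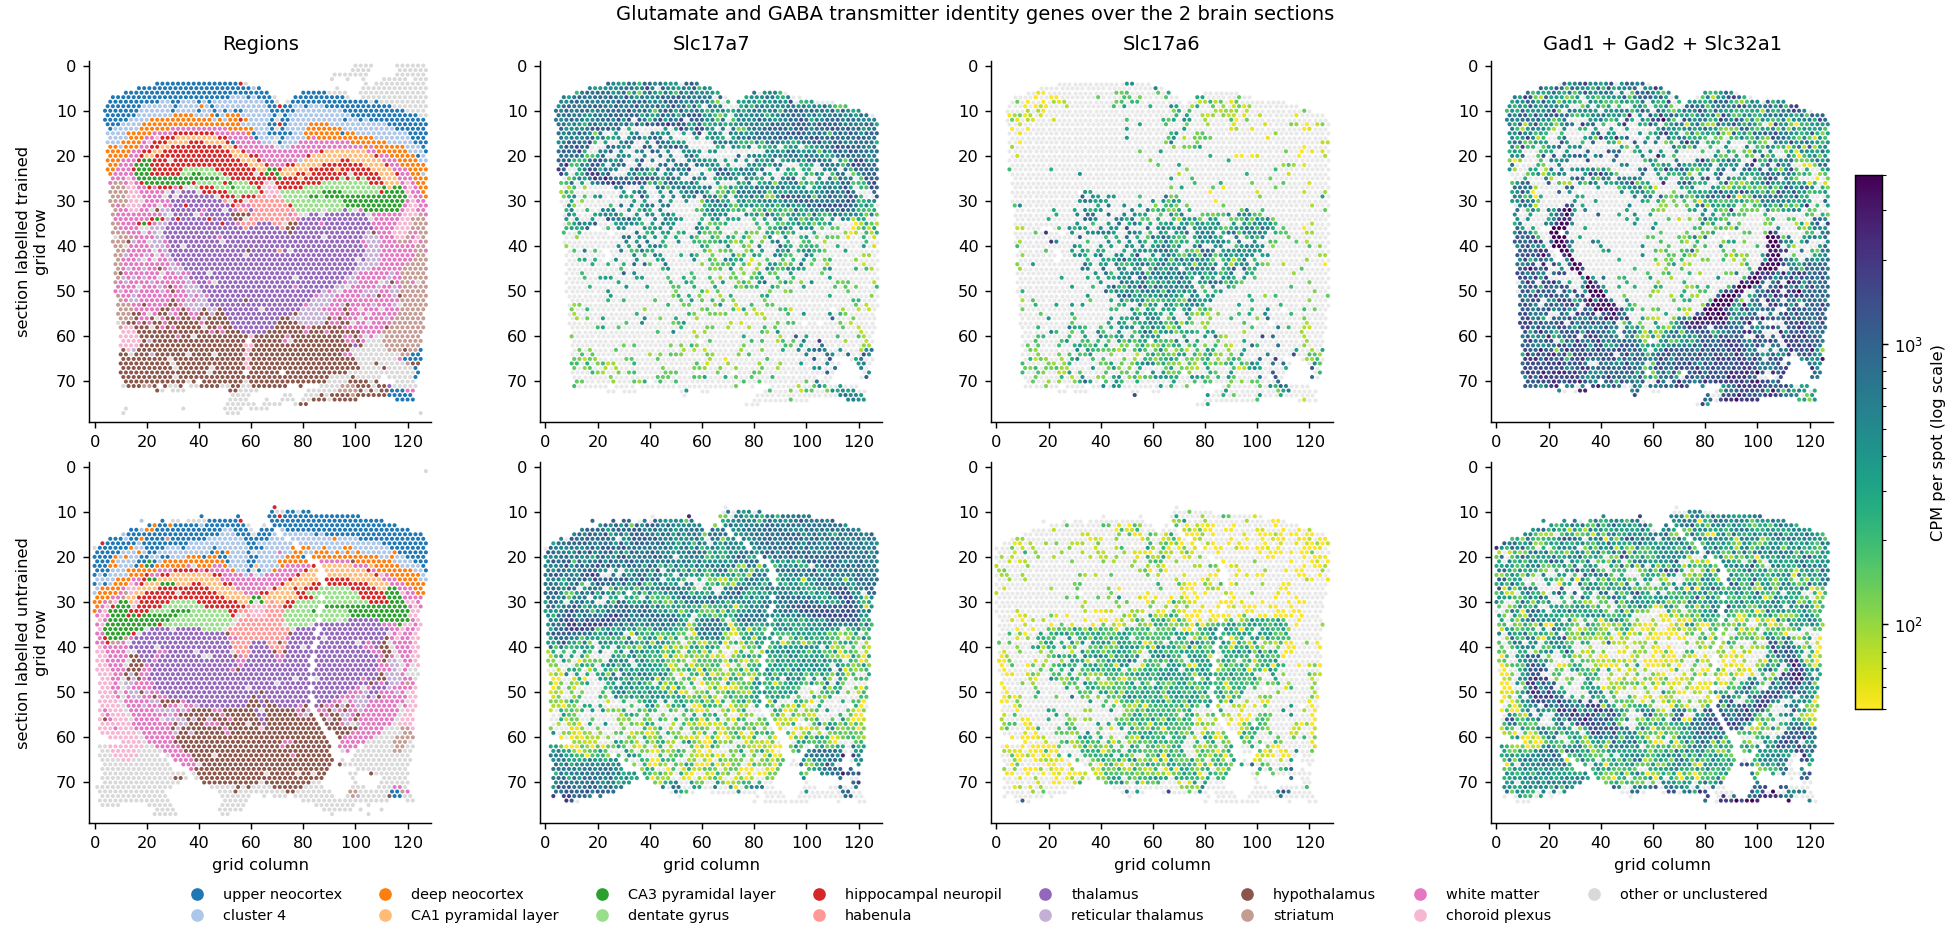
Grid position of every spot of both sections, coloured by region in the left column and by CPM per spot on a log scale in the other columns; grey spots in those columns held no UMI of the gene, and adjacent spots of a row are 2 grid columns apart. Slc17a7 fills the upper part of each section, Slc17a6 the centre, and the summed GABA genes trace a band on each side of the thalamus. In the section labelled untrained Slc17a7 rises again toward the bottom, from 96.35 CPM in grid rows 54 to 59 to 343 CPM in rows 66 to 71.

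Slc17a7 was highest in the CA3 pyramidal layer, with 1046 CPM (991 to 1103) in the section labelled trained and 1239 CPM (1203 to 1276) in the section labelled untrained. The deep neocortex followed with 963 CPM (922 to 1006) and 818 CPM (784 to 854). Its interval overlapped that of CA3 in the section labelled trained only. Cluster 4, a group given no regional name and led by Dkkl1, Fezf2 and Hs3st2, the second of them a transcription factor gene of deep-layer projection neurons, had 711 and 663 CPM, the upper neocortex 646 and 695, CA1 624 and 706, and the dentate gyrus 486 and 665. These 4 were within 1.5-fold of each other in each section. The hippocampal neuropil, which holds mainly dendrites and axons, had 335 and 384 CPM. Cluster 19 had 549 CPM (525 to 573) over its 178 spots of the section labelled untrained.

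The level of Slc17a7 outside the cortex was set beside that of the choroid plexus spots, 108 CPM (85.4 to 134) and 119.5 CPM (110.0 to 129.7). The choroid plexus is an epithelium without neurons, but its spots also held RNA of other tissue. White matter genes summed to 10003.9 and 6247 CPM in them, against 5333 and 5726 CPM in the thalamus. The habenula, with 323 and 380.4 CPM, lay above the choroid plexus level of Slc17a7. The thalamus had 141 CPM (131 to 153) and 262 CPM (252 to 272), and partly overlapped that level in the section labelled trained. The hypothalamus, with 37.6 CPM (32.3 to 43.7) and 99.9 CPM (93.1 to 107), lay below the choroid plexus level in both sections. The reticular thalamus, with 37.5 CPM, and the striatum, with 53.9 CPM, also lay below it in the section labelled trained. The choroid plexus level is therefore no floor, and whether the hypothalamic level is background was not tested. RNA of the choroid plexus itself was more widespread in the section labelled untrained: its marker genes summed to 330 and 1988 CPM in the upper neocortex. The part of such spread RNA in the levels was not tested.

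Slc17a6 had the opposite order. The thalamus held 387 CPM (368 to 405) and 242 CPM (233 to 252), the habenula 223 CPM (178 to 276) and 170.1 CPM (150.0 to 192), and the hypothalamus 120.2 CPM (110.5 to 131) and 163.5 CPM (155 to 172.5). In the section labelled untrained the intervals of the habenula and the hypothalamus overlapped, so their order was not settled there. The thalamus alone took 60.3% and 47.6% of all Slc17a6 UMIs in 17.37% and 17.66% of all spots. The choroid plexus level was 30.9 CPM (19.6 to 46.4) and 22.7 CPM (18.6 to 27.4). The deep neocortex, with 8.02 and 11.2 CPM, and CA3, with 3.06 and 17.6 CPM, lay below it, with an overlapping interval for CA3 in the section labelled untrained. The upper neocortex, with 37.5 CPM (31.4 to 44.4) and 32.4 CPM (28.1 to 37.2), was at it in the section labelled trained and slightly above it in the other.

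**Figure D2:**
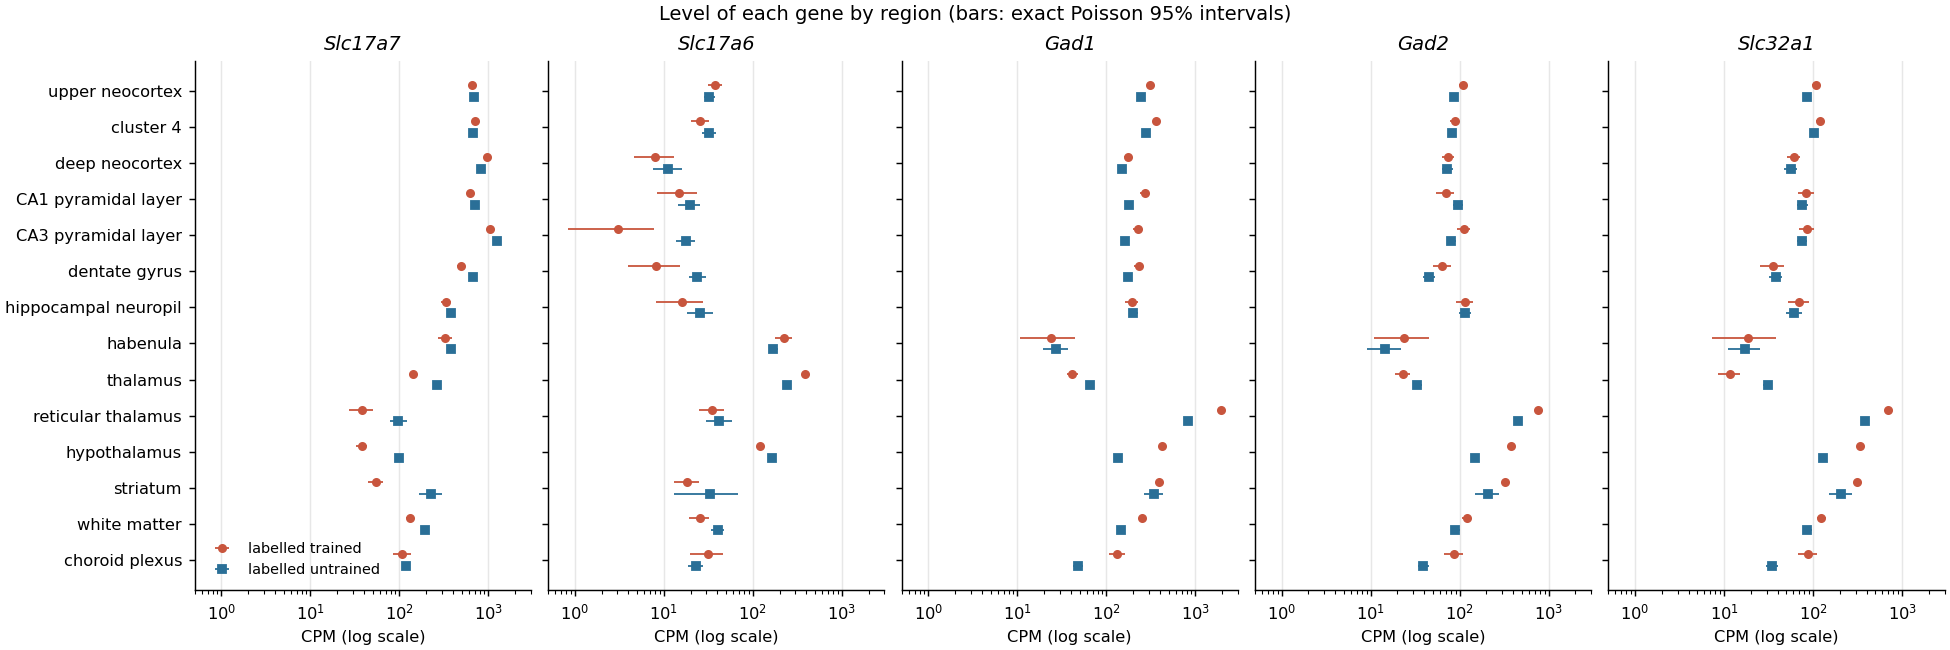
Level of each gene in CPM on a log axis, in 14 regions of the section labelled trained (circles) and the section labelled untrained (squares), with exact Poisson 95% intervals. Slc17a7 falls from cortex and hippocampus to the hypothalamus, Slc17a6 rises at the habenula and thalamus, and the GABA genes peak in the reticular thalamus.

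The thalamus was set against the upper neocortex to size the switch between transporters. Slc17a6 was 10.3-fold higher in the thalamus of the section labelled trained, a log2 ratio of 3.36 (3.11 to 3.63), and 7.46-fold higher in the other, 2.90 (2.70 to 3.11). It was the only 1 of the 5 genes at least 4-fold higher there, as were 1.39% of 6057 and 1.12% of 8484 genes with at least 200 UMIs in the 2 regions. Slc17a7 was 4.56-fold higher in the upper neocortex of the section labelled trained and 2.65-fold in the other. The other 4 genes were all at least 4-fold higher in the upper neocortex of the section labelled trained, where 1.96% of genes were, and 0 of them in the section labelled untrained, where 1.37% were and Gad1 came closest with 3.72-fold.

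The share of Slc17a6 among the UMIs of both transporters put the same split on 1 scale. In the neocortex, CA fields, dentate gyrus and hippocampal neuropil the share stayed between 0.291% and 6.26% over both sections. CA3 gave 0.291% (0.0795 to 0.745) and 1.40% (1.08 to 1.79), the deep neocortex 0.826% (0.482 to 1.32) and 1.35% (0.903 to 1.93), and the upper neocortex 5.49% (4.62 to 6.47) and 4.46% (3.88 to 5.10). Without the spots at the border of the upper neocortex its share was 3.21% and 3.595%. The habenula gave 40.9% (34.1 to 47.9) and 30.9% (27.8 to 34.2). The thalamus gave 73.2% (71.4 to 75) and 48.0% (46.7 to 49.4). The hypothalamus had the highest shares, 76.2% (72.9 to 79.2) and 62.1% (59.98 to 64.1), with transporter UMIs at only 158 and 263 CPM in sum. In the hypothalamus labelled trained the interval overlapped that of the thalamus.

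**Figure D3:**
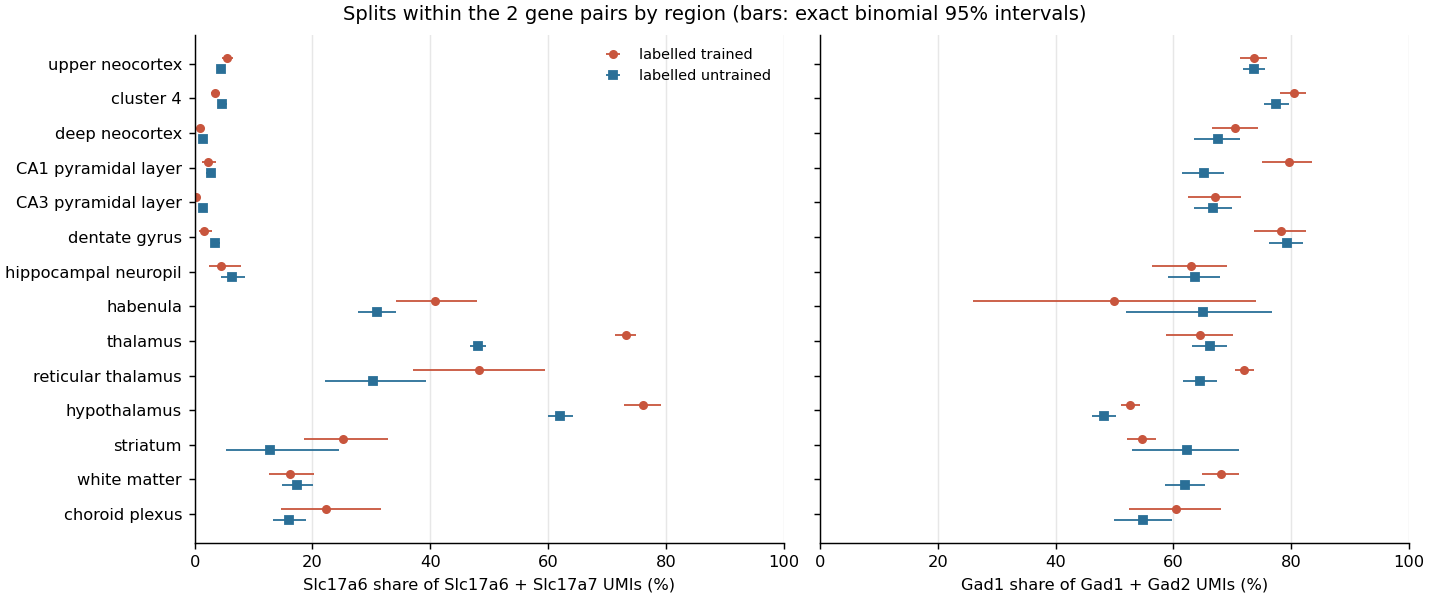
Share of Slc17a6 among Slc17a6 and Slc17a7 UMIs (left) and of Gad1 among Gad1 and Gad2 UMIs (right) in 14 regions of both sections, in percent with exact binomial 95% intervals. The transporter share steps from under 10% in cortex and hippocampus to above 30% in the habenula, thalamus and hypothalamus; the Gad1 share is lowest in the hypothalamus, apart from the habenula labelled trained with 18 UMIs.

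The thalamus itself was graded from the midline outward. Within 12 grid columns of the midline the Slc17a6 share was 83.5% (81.2 to 85.7) and 67.6% (64.7 to 70.5), and it fell in each further step to 51.7% (38.4 to 64.8) and 36.2% (33.4 to 39.1) beyond 36 columns. Slc17a6 fell from 428 to 272 CPM and from 287 to 201 CPM along this axis, while Slc17a7 increased from 84.3 to 254.6 CPM and from 137 to 354 CPM. The 3 thalamic clusters, which were formed without either gene, had the same order in both sections. Cluster 9, led by Ctxn3, Cbln1 and Cbln4, had shares of 87.1% and 64.7%. Cluster 8, led by Gbx2, Shox2 and Prkch, had 77.1% and 51.5%. Cluster 1, led by Prkcd, Tnnt1 and Rab37, had 61.7% and 38.0%.

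The habenula showed the reverse gradient. Within 4 columns of the midline, where Tac2, a neuropeptide gene of the medial habenula, had 1439 and 2717 CPM, the Slc17a6 share was 31.6% (23.8 to 40.2) and 21.6% (17.9 to 25.8). At 8 columns or more, where Tac2 had 84.3 and 48.1 CPM, it was 61.9% (38.4 to 81.9) and 55.9% (45.7 to 65.7). The change came from Slc17a7, which went from 464 to 169 CPM and from 670 to 135 CPM. Slc17a6 went from 214 to 274 CPM and from 185 to 171 CPM, with overlapping intervals in both sections. The outer step held 9 and 22 spots.

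In the upper neocortex Slc17a6 was concentrated next to the midline, where the retrosplenial area lies. Within 12 columns it had 118.5 CPM and 88.6 CPM and a share of 22.0% (16.2 to 28.7) and 13.6% (10.5 to 17.2). From 36 columns outward it had 26.0 CPM (19.99 to 33.3) and 27.2 CPM (22.0 to 33.2), overlapping the choroid plexus level, and shares of 3.61% and 3.67%. In cluster 4 the share went from 10.3% to 1.34% and from 10.9% to 3.10%. Tshz2, the retrosplenial marker fixed for naming, fell alongside in the upper neocortex, from 97.8 to 3.30 CPM and from 99.1 to 5.33 CPM. In the deep neocortex the share was below 3% at every distance. Within 12 columns it rested on 7 spots and 1 Slc17a6 UMI in each section, with intervals of 0.07% to 14.5% and 0.04% to 8.2%. Whether it rose near the midline was therefore not settled.

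**Figure D4:**
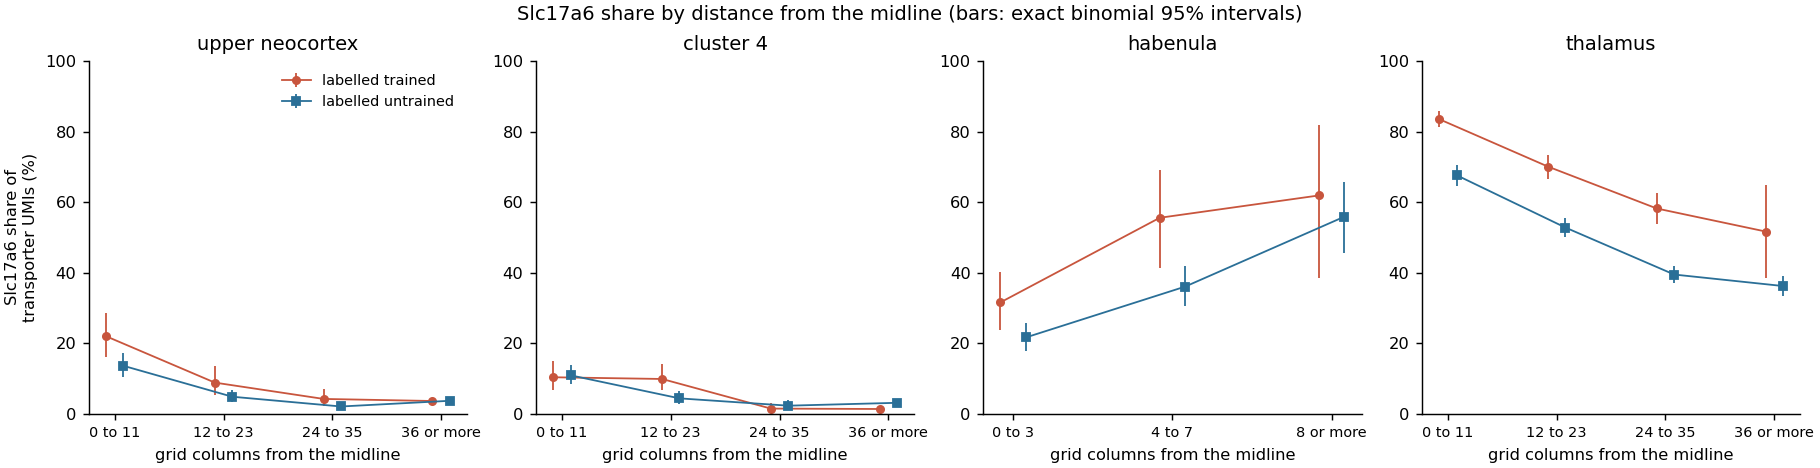
Share of Slc17a6 among transporter UMIs, in percent with exact binomial 95% intervals, by distance from the midline in grid columns, for the upper neocortex, cluster 4, the habenula and the thalamus of both sections. The share is higher near the midline than far from it in the cortical groups and the thalamus, and increases outward in the habenula.

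A spot covers several cells, so UMIs of both transporters in a spot do not show both in a cell. Both were found in 15.2% (14.2 to 16.4) and 44.0% (42.4 to 45.6) of all spots, and in 1.20% and 1.76% after thinning each spot to 1000 UMIs, which left the sections much closer. After thinning, spots with both were most frequent in the thalamus, at 3.77% and 4.42%, and the habenula, at 4.99% and 3.76%, against 0.257% and 0.314% in the choroid plexus. Slc17a6 was then found in 28.9% and 19.95% of thalamus spots and Slc17a7 in 14.1% and 22.8%. Each was found in fewer choroid plexus spots, 3.68% and 2.63% for Slc17a6 and 9.45% and 14.05% for Slc17a7. A joint share depends on such single shares, and joint presence beyond them was not tested. Among spots with at least 10 transporter UMIs, 85.3% of 402 and 66.3% of 1095 had a Slc17a6 share under 10%. In the thalamus 28 of 721 and 204 of 660 spots had that many. Of these, 20 and 199 had a share from 10% to 90%, and 8 and 3 had a share over 90%. The median share of spots with at least 10 transporter UMIs was 80% and 48.8% in the thalamus and 0% and 1.22% in the upper neocortex. Among these transporter-rich spots, most of the thalamus held both transporters and most of the upper neocortex nearly only Slc17a7. The other spots held too few UMIs for a share.

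The GABA genes peaked in cluster 16, called the reticular thalamus here, which is the shell of GABA neurons around the dorsal thalamus. It was named by a marker set for the reticular thalamus and the zona incerta, a neighbouring GABA nucleus, which the set does not separate, and 1 marker of the set, Spp1, was among its 10 leading genes. Gad1 had 1967 CPM (1886 to 2049) and 820 CPM (760.2 to 883) there, Gad2 763 CPM (713 to 815) and 451 CPM (407.5 to 499), and Slc32a1 687 CPM (640 to 737) and 386 CPM (345 to 430). Against the thalamus these were 47.3-fold and 12.5-fold for Gad1, 33.3-fold and 13.5-fold for Gad2, and 59.2-fold and 12.5-fold for Slc32a1. All 3 were at least 4-fold higher, as were 0.549% of 4552 and 0.174% of 6907 genes, while Slc17a6 and Slc17a7 were lower. In 155 and 67 spots, the reticular thalamus held 23.3% and 7.40% of all Gad1 UMIs. The summed level of the 3 genes there, 3416 and 1657 CPM, depended on where the border was drawn: it was 1942 and 757.4 CPM with a coarser grouping of spots.

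Next to the reticular thalamus, the order of the places differed between the sections. In the section labelled trained the 3 GABA genes summed to 1129 CPM (1099 to 1160) in the hypothalamus and 1018 CPM (976 to 1061) in the striatum, above the upper neocortex with 524 CPM (501 to 549). In the section labelled untrained the hypothalamus had 413 CPM (399 to 427), not separable from the upper neocortex with 416 CPM (400.3 to 432). This depended on the border of the hypothalamus, which had 285 against 411.1 CPM with the coarser grouping and 341.5 against 414.5 CPM without border spots. The striatum had 752 CPM (640 to 878) there over 27 spots, and cluster 19 had 520 CPM (497 to 543). Other places were also high in 1 or both sections. The meninges and vessels had 805 CPM (732 to 883) and 286 CPM (259 to 315). Cluster 18, a shallow group of 83 and 101 spots given no regional name, had 748 CPM (598 to 924) and 768 CPM (639.5 to 914). Cluster 3 of the white matter had 862 and 470 CPM. Within the hypothalamus, cluster 0, led by Pmch, Nts and Ecel1, had 1266 and 546 CPM, above cluster 5, led by Oxt, Arhgap36 and Avp, with 926 and 277 CPM. Slc17a6 had the opposite order in these clusters, with 103 and 133 CPM in cluster 0 and 146 and 195 CPM in cluster 5.

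In the neocortex and hippocampus the GABA genes lay between 258 and 565 CPM in sum. Cluster 4 had the most, 565 CPM (538 to 594) and 466 CPM (445 to 487), and the deep neocortex 312 CPM (288 to 336) and 280.3 CPM (260.3 to 301). The thalamus, with 75.8 CPM (67.9 to 84.4) and 130 CPM (123 to 137), and the habenula, with 65.6 CPM (42.5 to 96.9) and 58.7 CPM (47.1 to 72.2), were the lowest neuronal regions. Their level was read against cluster 17, the larger choroid plexus cluster, with 144 CPM (114 to 178) and 98.0 CPM (89.0 to 108), since the small cluster 23 of 22 and 21 spots had 872 and 429 CPM. The habenula lay below it in both sections, and the thalamus below it in the section labelled trained and above it in the other. This reference was chosen with the GABA levels of both clusters known. All choroid plexus spots together had 305.5 CPM (267 to 348) and 122 CPM (112 to 132). The thalamus labelled untrained overlapped that level, while the habenula in both sections and the thalamus labelled trained lay below it.

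The makeup of the GABA genes varied by place. The Gad1 share of Gad1 and Gad2 UMIs was 80.4% (78.1 to 82.6) and 77.5% (75.3 to 79.6) in cluster 4, 73.7% (71.4 to 75.9) and 73.7% (71.8 to 75.6) in the upper neocortex, and 78.3% (73.7 to 82.5) and 79.2% (76.3 to 82.0) in the dentate gyrus. It was 52.7% (51.0 to 54.3) and 48.2% (46.1 to 50.3) in the hypothalamus and 54.6% (52.1 to 57.1) and 62.4% (53.0 to 71.2) in the striatum. Gad2 thus took a larger part of the decarboxylase UMIs in the hypothalamus and striatum than in the upper neocortex. The reticular thalamus was at 72.0% (70.5 to 73.6) and 64.5% (61.6 to 67.3). Its interval overlapped that of the upper neocortex in the section labelled trained and that of the striatum in the other. In its 14 and 2 inner spots the share was 66.7% and 71.4%, so its place in this order was not settled. The share of Slc32a1 among the 3 genes was lowest in the dentate gyrus, 10.7% and 14.6%, against 29.8% and 31.1% in the hypothalamus.

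Spots could hold glutamate and GABA genes together. In the hypothalamus UMIs of Slc17a6 and Gad1 were found together in 42.7% and 53.1% of spots, or 3.10% and 1.28% after thinning to 1000 UMIs. After thinning, Slc17a6 was found in 11.2% and 13.7% of these spots, and Gad1 in 32.1% and 13.6%, with or without the other. The choroid plexus, where both genes were scarcer, gave joint shares of 0.470% and 0.207%. Joint shares here again depend on the single shares, and joint presence beyond them was not tested. In the upper neocortex Slc17a7 and Gad1 were found together in 79.03% and 88.8%, or 10.6% and 10.1% after thinning. GABA genes made up 87.7% and 61.0% of the UMIs of the 5 genes in the hypothalamus, 97.9% and 92.2% in the reticular thalamus, 43.4% and 36.4% in the upper neocortex, and 12.6% and 20.4% in the thalamus. Gad1 and Gad2 were found together in 92.9% and 91.0% of the reticular thalamus spots.

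The genes whose pattern was most like that of each of the 5 were taken by the Pearson correlation of log2 levels over 44 profiles, 22 clusters in each section. The profiles share libraries and neighbouring tissue, so r is a description. For Slc17a6 they were Tcf7l2, a transcription factor of thalamic neurons (r = 0.895), Gpr153 (0.877), Zfp423 (0.867), Amotl1 (0.855) and the pacemaker channel gene Hcn4 (0.852). For Slc17a7 they were Neurod2, a transcription factor of cortical excitatory neurons (0.885), Mical2 (0.866), Nrgn, which encodes the postsynaptic protein neurogranin (0.859), Nptx1 (0.852) and Rtn4r (0.847). The GABA genes were most like each other: Slc32a1 and Gad2 had r = 0.963, Gad1 and Gad2 0.891, and Slc32a1 and Gad1 0.876. Slc17a6 and Slc17a7 had r = -0.49. Sst, which encodes somatostatin, and Dlx6, a transcription factor gene of forebrain GABA neurons, were among the 5 for all 3 GABA genes.

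Gm14204, the transcript that starts inside the printed Slc32a1 window and is read away from it, was the remaining gene for Slc32a1 and Gad2, with r = 0.869 to Slc32a1 and 0.875 to Gad2. It lies at chr2:158595472-158610723, on the minus strand, and its annotated end nearest to Slc32a1 is 44 bases from that gene. It had 221 and 347 UMIs, or 7.49 CPM (6.53 to 8.54) and 5.88 CPM (5.28 to 6.53). The reticular thalamus had 25.3 CPM (16.9 to 36.3) and 37.4 CPM (25.6 to 52.8), and the thalamus 1.81 CPM (0.779 to 3.56) and 1.36 CPM (0.743 to 2.28). Of the 203 and 304 spots with Gm14204, 77.3% and 80.3% also held Slc32a1, against 41.8% and 52.1% of all spots. The gap was smaller within regions. It was 96.2% against 94.8% and 100% against 95.5% in the reticular thalamus, and 89.55% against 77.9% and 84.9% against 74.3% in the hypothalamus. Joint presence beyond region and depth was not tested. The reticular thalamus intervals of Gm14204 overlapped between the sections, which those of Slc32a1 did not.

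Other genes that handle glutamate and GABA divided by cell role. Of the 14 listed, 13 had at least 400 UMIs, and Slc17a8, the gene of VGLUT3, had 130 and 227. Slc1a2 and Slc1a3, the glutamate transporters of astrocytes, were highest in the hippocampal neuropil, with 1980 and 1675 CPM for Slc1a2 and 679 and 390.5 CPM for Slc1a3, and so was Glul, glutamine synthetase, with 865 and 832 CPM. Slc1a1, a neuronal glutamate transporter, was highest in CA1, with 101 and 92.0 CPM. Gls2 was at 27.2 CPM in cluster 4 of the section labelled trained and 43.3 CPM in the reticular thalamus of the other, its highest regions.

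Genes that remove or break down GABA differed in how far they shared the pattern of the genes that make it. Abat, GABA transaminase, was highest in the reticular thalamus, with 411.5 and 343 CPM, followed by the hypothalamus, with 323 and 270 CPM. It kept 240.0 and 224 CPM in the thalamus, where the GABA genes were low. Slc6a11, the gene of the astrocytic GABA transporter GAT3, was high in the thalamus, with 194 and 283 CPM, where the GABA genes were low. It was also high in the hypothalamus, with 152 and 319.5 CPM, and the reticular thalamus, with 136 and 257 CPM, where they were not low. In the upper neocortex Slc6a11 had 28.5 and 55.0 CPM. Slc6a13 was highest in the meninges and vessels, with 89.6 and 148 CPM. Aldh5a1, which acts after Abat, was highest in the meninges and vessels of the section labelled trained, with 59.1 CPM, and in the habenula of the other, with 69.2 CPM. The glutamine transporter gene Slc38a3 was highest in the choroid plexus, with 157 and 284 CPM, and Slc38a1 was highest in the reticular thalamus labelled trained, with 189 CPM, and the habenula labelled untrained, with 148 CPM.

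Of 14 listed genes of GABA neurons, 12 had at least 400 UMIs, and Dlx2 and Dlx5 fell below that. Pvalb, the parvalbumin gene, was highest in the reticular thalamus, with 4767 and 2112 CPM, as was Six3, with 261 and 81.9 CPM. Sst had 1274 and 635 CPM there and Dlx1 27.9 and 14.03 CPM. Meis2 and Dlx6 were highest in the striatum, with 254 and 112 CPM for Meis2 and 26.9 and 18.7 CPM for Dlx6. Vip, a marker of a class of cortical interneurons, was highest in the upper neocortex, with 194 and 154 CPM, and Npy had 361 and 364 CPM there. Pnoc was highest in the hypothalamus labelled trained, with 58.1 CPM, and in the reticular thalamus labelled untrained, with 79.5 CPM. Lhx6 and Dlx6os1 reached at most 19.8 and 21.5 CPM in any region of the section labelled trained, and 11.5 and 23.4 CPM in the other. In the thalamus Sst had 42.0 and 78.9 CPM and Npy 30.7 and 54.4 CPM, while Pvalb had 272 and 232 CPM.

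Genes of other transmitters were sparse, and 4 of 13 reached 400 UMIs. Slc5a7, the choline transporter gene, had 136.5 and 40.9 CPM in the habenula. Hdc, which makes histamine, had 40.4 and 43.9 CPM in the choroid plexus, and Ddc 53.9 and 40.8 CPM in the white matter. Th had 30.1 and 15.5 CPM in the hypothalamus, 28.9 and 34.9 CPM in the habenula, and 30.5 and 5.64 CPM in the meninges and vessels.

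Between the sections, the GABA genes were about 2-fold higher in the section labelled trained and the glutamate transporters differed less. The log2 ratio of the trained to the untrained label was 1.03 (0.99 to 1.07) for Gad1, 0.97 (0.91 to 1.02) for Gad2 and 1.01 (0.95 to 1.07) for Slc32a1. It was -0.29 (-0.32 to -0.25) for Slc17a7 and 0.12 (0.05 to 0.18) for Slc17a6, whose direction turned to -0.31 when regions were weighted equally. Of the 5 genes, 3 were at least 1.5-fold higher in the section labelled trained, as were 8.06% of 11460 genes with at least 400 UMIs, and 0 were 1.5-fold lower, as were 4.75%. The median ratio of all genes was 0.07, with an SD of 0.43 over genes. With regions weighted equally the GABA ratios were 0.58, 0.42 and 0.32 in the same order.

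The regions did not share these ratios. In the hypothalamus the ratio was 1.61 (1.5 to 1.72) for Gad1, 1.35 (1.24 to 1.46) for Gad2 and 1.39 (1.27 to 1.503) for Slc32a1, and in the reticular thalamus 1.26 (1.14 to 1.39), 0.76 (0.58 to 0.93) and 0.83 (0.64 to 1.02). In the upper neocortex all 3 were between 0.32 and 0.34. In the thalamus they were below 0, at -0.65 (-0.90 to -0.42), -0.55 (-0.89 to -0.23) and -1.41 (-1.88 to -0.99). The thalamus labelled trained had 75.8 CPM of the 3 genes in sum, below the larger choroid plexus cluster with 144 CPM. The thalamus labelled untrained lay above that cluster, with 130 against 98.0 CPM. Its interval overlapped that of all choroid plexus spots together, with 122 CPM (112 to 132). The Slc32a1 ratio of the thalamus rested on 51 and 317 UMIs. Whether the thalamic GABA levels are background was not tested. Slc17a7 was higher in the thalamus of the section labelled untrained, at -0.89 (-1.02 to -0.76), and Slc17a6 was higher in the thalamus of the section labelled trained, at 0.67 (0.58 to 0.76). In the hypothalamus Slc17a7 was at -1.40 (-1.65 to -1.17), a ratio of levels that both lay below the choroid plexus level. In the choroid plexus, from 98 and 229 UMIs, Gad1 was at 1.47 (1.11 to 1.81), and 61 and 64 of these UMIs came from the small cluster 23. In these data fewer cells of a type and less RNA per cell cannot be told apart, nor can training, animal, plane of section and library.

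**Figure D5:**
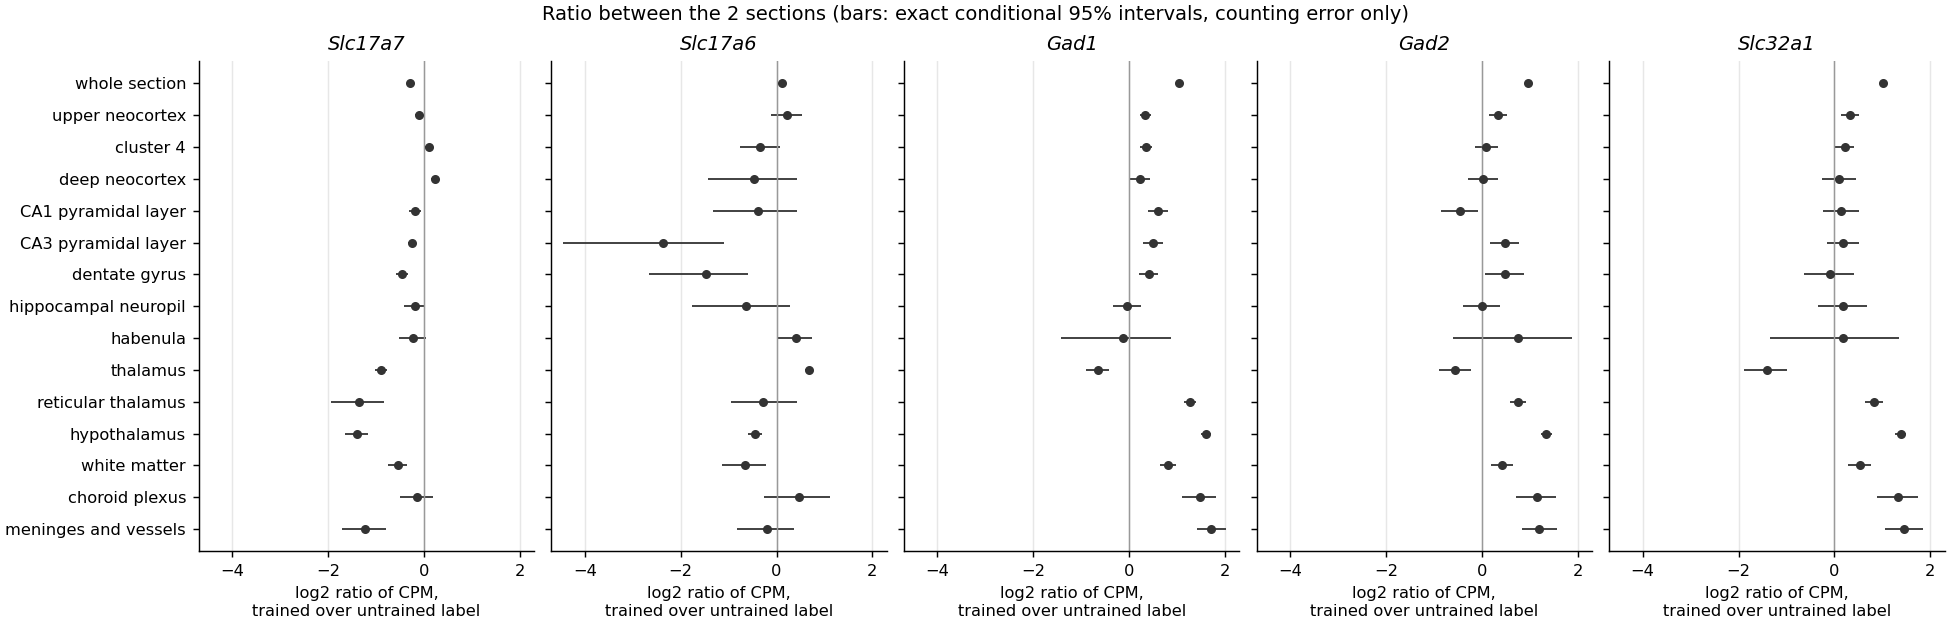
Log2 ratio of CPM between the sections, trained to untrained label, for each gene, over the whole section and in 14 regions, without the striatum and cluster 19, with exact 95% intervals for counting error. Gad1, Gad2 and Slc32a1 lie near 1 over the whole section, above 0 in the hypothalamus and reticular thalamus and below 0 in the thalamus. In the thalamus labelled trained their summed level lay below that of the larger choroid plexus cluster.

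Some listed genes differed between the sections as well. Of the 12 GABA neuron genes, 6 were at least 1.5-fold higher in the section labelled trained and 0 were lower, against 8.06% and 4.75% of all genes, with a median log2 ratio of 0.54, against 0.07. The 6 were Six3 (1.82), Meis2 (1.76), Dlx6 (1.15), Pvalb (1.02), Dlx6os1 (0.63) and Lhx6 (0.60). The reticular thalamus and striatum, where Six3 and Meis2 were highest, took 155 and 212 spots of the section labelled trained and 67 and 27 of the other. By the same fold and against the same shares of all genes, of the 13 handling genes 2 were higher, Slc1a3 (0.76) among them, Slc38a3 (-0.72), Slc6a11 (-0.79) and Slc6a13 (-0.84) were lower, and the median was -0.07. Of the 4 other transmitter genes, Slc5a7 (2.21) and Th (0.94) were higher and Hdc (-1.69) was lower, with a median of 0.69.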

How the data were processed

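The members and gene lists were chosen with earlier results of these data known. The authors trimmed reads with TrimGalore and counted UMIs with Space Ranger 2.0.0, per the labels, against the 10x mouse reference on mm10, and deposited the counts per gene and spot over tissue with the grid position of each spot. The deposited enrichment tables also held the authors' score, Moran's I, and counts per gene, which equalled the matrix sums for all 20513 and 21498 genes listed. Their p-values and normalized averages were not used here.

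Both sections were clustered together with Python 3.11.15, scikit-learn 1.9.0 and leidenalg 0.10.2: 1412 variable genes, without 46 member, listed or related genes, 30 principal components, 15 neighbours and Leiden at resolution 1.5 gave 24 clusters of 7582 spots. The 308 spots under 500 UMIs were left out. Clusters were named by the marker set with the highest mean z score, where that was above 1 with at least 3 markers at 5 CPM and 1 among the 10 leading genes, unless their spots were shallow. These thresholds, the midline and the distance steps were chosen with the maps in view.

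UMIs were pooled over spots. Log2 ratios used a pseudocount of 0.5 UMI, and shares after thinning are expectations over all draws of 1000 UMIs without replacement. With 1 section per group no test was possible and no p-value is given. Intervals and ratios were tested on simulated counts. Genes named are the 5 members, listed genes with at least 400 UMIs, and the 5 most alike to each member, apart from some genes that are not reported here; leading genes name clusters. Alternatives changed the scaling, weighting, pseudocount, resolution, spots used and side of the section.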

Additional observations from a re-analysis of the deposited data

Results flagged for a closer look

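Over the named regions with at least 30 spots in each section, for all 5 genes the log2 ratio between the sections, trained to untrained label, lay above 0 in some regions and below 0 in others, with counting intervals that did not reach 0. The difference between regions was not tested, since each group held 1 section. Slc17a6 had its highest such ratio in the thalamus, 0.67, and its lowest in the CA3 pyramidal layer, -2.37, where it rested on 4 and 62 UMIs at or below the choroid plexus level. Slc17a7 ranged from 0.23 in the deep neocortex to -1.40 in the hypothalamus, where both levels lay below the choroid plexus level, and was at -2.07 in the striatum, which had 27 spots in the section labelled untrained. Slc32a1 ranged from 1.46 in the meninges and vessels to -1.41 in the thalamus, Gad1 from 1.71 in the meninges and vessels to -0.65 in the thalamus, and Gad2 from 1.35 in the hypothalamus to -0.55 in the thalamus. In the thalamus labelled trained the summed level of these GABA genes lay below that of the larger choroid plexus cluster.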

How the results depend on the processing

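No paired analysis was possible because the groups shared only 1 replicate number, and with 1 section each no sample was left out. Under the alternatives run, the Slc17a6 share of transporter UMIs ranged from 70.3% to 76.2% and from 47.1% to 48.4% in the thalamus and from 3.21% to 7.32% and from 3.595% to 5.22% in the upper neocortex. Values are again in the order trained, untrained. With inner spots only the thalamus labelled trained gave 76.2%, with spots weighted equally 70.3%, in the left side 75.9% and in the right side 71.2%. The upper neocortex labelled trained gave 3.21%, 7.32%, 3.97% and 6.97% in the same order, and that labelled untrained 3.595% with inner spots only and 5.22% in the left side.

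The log2 ratio between the sections turned for Slc17a6, to -0.31, with regions weighted equally, and was 0.27 with spots weighted equally. The cause was not tested. The order of genes is Slc17a7, Slc32a1, Gad1, Gad2 in what follows. Regions weighted equally gave -0.50, 0.32, 0.58 and 0.42. Spots weighted equally gave -0.51, 0.74, 0.89 and 0.80. Totals without mitochondrially encoded genes gave -0.35, 0.94, 0.97 and 0.90.

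The summed GABA genes in the reticular thalamus were 1942 and 757.4 CPM at resolution 1, 2870 and 1391 CPM at resolution 2, 4031 and 1913 CPM in 14 and 2 inner spots, 3854 and 1973 CPM without mitochondrially encoded genes, and 3283 and 1565 CPM in the left side. Spots with both transporters were 3.81% and 21.7% when 2 UMIs were required, 1.20% and 1.76% at 1000 UMIs per spot, and 3.86% and 5.46% at 2000. Depth limits any statement that a gene is absent from a spot. Of the 5 genes most alike to each member, at least 3 were shared with the reported 5 under every alternative run.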
